A study of Rattus norvegicus with 78 samples.

Results

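Gene expression in the prefrontal/frontal cortex (P/FC) was set against that in the hippocampus (HIP) of the Flinders Resistant Line (FRL), the comparison line of the Flinders rat model of depression. FRL rats were bred from Sprague-Dawley rats for resistance to an anticholinesterase, and the Flinders Sensitive Line (FSL), bred for sensitivity, is the line with the depression-like behaviour. All FRL arrays of the series were used, 44 of 78, with 22 of P/FC and 22 of HIP. The rats were adult males from 2 cohorts, with 12 arrays of each region in cohort 1 and 10 in cohort 2. They had no drug treatment stated in the sources used here, and tissue was taken from the right hemisphere 1 week after a forced swim test. P/FC was the whole frontal lobe, so that it need not be cortex alone, and each array held RNA of 1 region of 1 rat on an Affymetrix rat genome array. Both regions came from the same rats, but no label ties the P/FC array of a rat to its HIP array.

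The hippocampus holds densely packed excitatory neurons in distinct fields: the granule cells of the dentate gyrus and the pyramidal cells of CA1, CA2 and CA3. The frontal cortex is layered, with upper layers that connect cortical areas and deep layers that project to the striatum, thalamus and brain stem. Each field and layer has its own transcription factors, receptors and ion channels, and the hippocampus is known for its high content of mineralocorticoid receptor.

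Values are background-subtracted fluorescence intensities, and differences are on the log2 scale, P/FC minus HIP with cohort as a covariate, so that a negative value means higher in HIP. A gene was called when its adjusted p was under 0.05 (limma, Benjamini-Hochberg over 23528 probesets above an intensity of 30 in enough arrays of a region). At that threshold 60.2% of the probesets were called, 41.6% higher in P/FC and 18.6% higher in HIP. A call that was also at least 2-fold was made for 2.23% in the direction of P/FC and 1.17% in that of HIP. The 22 arrays of a region lay wholly above the 22 of the other for 3.34% of probesets toward P/FC and 1.36% toward HIP. Each region was processed on its own, so an effect of processing and an effect of region cannot be told apart in these differences. The median of all probesets lay at 0.089, and of the calls 69.1% pointed to P/FC. After each array was shifted to the same median, 51.2% did. Small differences near 0 therefore depend on the scaling. Gene lists are described by their calls and their median. Beside a list stand its calls after rescaling (that shift, or quantile normalisation), where they turned its balance or moved by 2 or more and over 1.5 times, and its median without some arrays or by cohort, where that moved clearly. A member that passed the filter only through the region where it was high had to differ, so the calls and median over the members above 30 in both regions are also given where that median moved as far.

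Some arrays stood apart. The HIP array numbered 2 of cohort 2 had the lowest of the 22 HIP values for 135 of the 276 probesets at least 2-fold higher in HIP, and the highest HIP value for 136 of the 525 at least 2-fold higher in P/FC. The P/FC array numbered 7 of cohort 1 was likewise nearest to the HIP level for 64 and 89 of them. Without the HIP array there were 285 and 528 such probesets. The 3' to 5' ratio of Gapdh was 0.87 ± 0.11 (SD, log2) in P/FC and 0.83 ± 0.078 in HIP, with n = 22 each (permutation test, two-sided, adjusted p = 0.186 over 4 control measures). The spikes added at labelling were higher in P/FC by 0.21 (log2, p = 0.0126 and adjusted p = 0.0505 in the same permutation test). Those added at hybridisation were higher there by 0.20 (p = 0.0538, adjusted p = 0.108 in that test). Neither passed 0.05 after adjustment, but the permutation test took no account of cohort. The hybridisation spikes averaged 10.98 in P/FC and 10.73 in HIP in cohort 1, and 10.47 and 10.34 in cohort 2. Spread between cohorts thus entered the test, and it does not show that the spikes were equal between regions. The part of the spikes in the differences was not tested.

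The labels of the regions were set against 4 known region genes. Prox1, the transcription factor that sets the identity of dentate granule cells, was higher in HIP. Prox1 read 338 to 468 on the HIP arrays (median 409.6) and 101 to 143 on the P/FC arrays (median 122). No P/FC array reached the lowest HIP array (log2 difference -1.73 ± 0.044 (SE), adjusted p = 5.44e-32). Nr3c2 read 325 to 523 on the HIP arrays (median 432) and 81.5 to 146 on the P/FC arrays (median 105). It encodes the mineralocorticoid receptor, the high-affinity receptor for corticosterone, and its groups did not overlap either (log2 difference -2.0 ± 0.057 (SE), adjusted p = 2.98e-30). Bok read 400.0 to 600.0 on the HIP arrays (median 486) and 181 to 296 on the P/FC arrays (median 216). Bok, a member of the Bcl-2 family and a marker of CA3, was 2.22-fold higher in HIP with no overlap (adjusted p = 3.27e-25). Rasd2 read 295 to 539 on the HIP arrays (median 393) and 504 to 1113 on the P/FC arrays (median 797). Rasd2, a small G protein also known as Rhes and rich in the striatum, was higher in P/FC, but its groups met at the edges (log2 difference 0.97 ± 0.082 (SE), adjusted p = 4.75e-14).

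**Figure D1:**
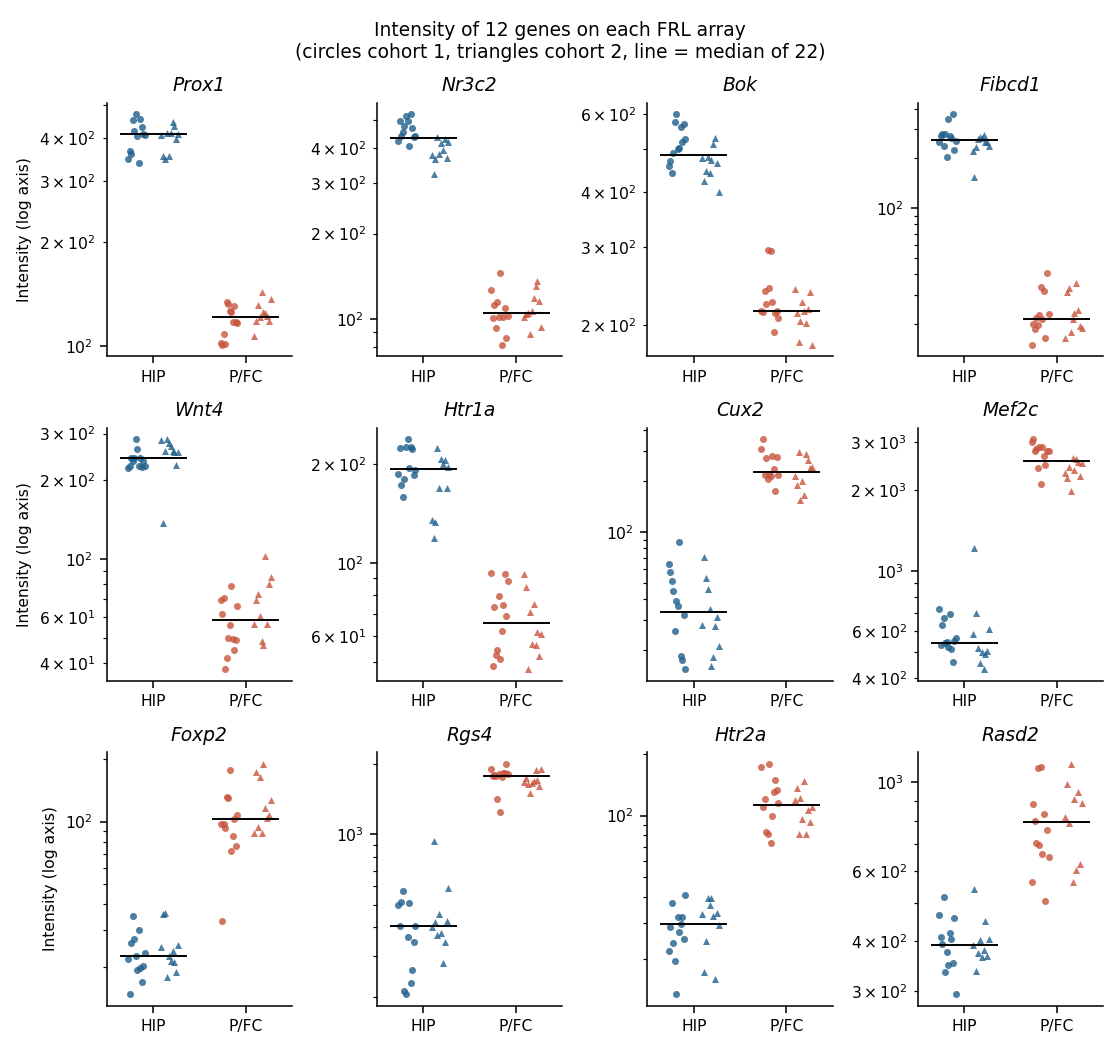
Intensity (log axis) of 12 genes on each of the 22 HIP and 22 P/FC arrays of FRL rats, with circles for cohort 1, triangles for cohort 2 and a line at each median. The upper row and Wnt4 and Htr1a are higher in HIP, the remaining 6 genes are higher in P/FC, and a single HIP array of cohort 2 lies toward the P/FC level for Fibcd1, Wnt4, Mef2c and Rgs4.

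As these are pieces of tissue, fewer cells of a type and less RNA per cell cannot be told apart. Among the dentate granule cell markers, Prox1 led, followed by Dock10 (-1.55), Dsp (-1.13), Smad3 (-0.81) and Trpc6 (-0.59), all higher in HIP. Dsp encodes desmoplakin and Smad3 a transducer of TGF-beta signals. The dentate granule cells list had 7 of 10 genes measured, of which 1 was called higher in P/FC and 5 higher in HIP, around a median log2 difference of -0.81. Stxbp6 (0.20) was called in the direction of P/FC, and it did not pass after quantile normalisation.

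In CA1 the largest difference belonged to Fibcd1, a membrane receptor that binds chitin. Fibcd1 read 154 to 369 on the HIP arrays (median 259) and 14.9 to 40.3 on the P/FC arrays (median 21.4). The P/FC values lay wholly below those of HIP (log2 difference -3.48 ± 0.10 (SE), adjusted p = 2.98e-30). As the P/FC values were under 30 on most arrays, the fold depends on the offset and fell from 11.2-fold to 6.92-fold with 16 added before the logarithm. Pou3f1 (-1.20) and Wfs1 (-0.60) followed, a POU factor and the wolframin gene, and Mpped1 (0.47) went the other way. CA1 pyramidal cells had 1 call toward P/FC and 3 toward HIP among 5 of 7 genes measured, with a median log2 difference of -0.60. The 4 that were above 30 in both regions had 1 and 2 calls and a median of -0.35.

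The CA2 markers were led by Ntf3, which encodes neurotrophin 3. Ntf3 read 36.2 to 123 on the HIP arrays (median 80.5) and 14.6 to 40.5 on the P/FC arrays (median 23.3). The groups overlapped in single arrays (log2 difference -1.77 ± 0.12 (SE), adjusted p = 1.03e-17). Amigo2 (-0.88) and Rgs14 (-0.41) were also higher in HIP, while Pcp4 (0.72), a calmodulin regulator that marks cortical layer 5 too, was higher in P/FC. In the CA2 pyramidal cells list 6 of 7 genes were measured, 1 higher in P/FC, 4 higher in HIP and 1 not passing, and the median log2 difference was -0.63. Among the 5 above 30 in both regions, 1 pointed to P/FC and 3 to HIP, with a median of -0.41. Without the 6 HIP arrays richest in Ttr the calls were 1 and 4 and the median -0.32.

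Of the CA3 markers, Grik4 (-1.54), Cpne4 (-1.40), Bok (-1.15) and Nnat (-1.10) were each at least 2-fold higher in HIP. Grik4 encodes a kainate receptor subunit that sits at mossy fibre synapses, and Cpne4 a calcium-dependent membrane-binding protein. Grik4 read 105 to 208 on the HIP arrays (median 149.5) and 26.3 to 87.3 on the P/FC arrays (median 54.4). Iyd (0.83), an iodotyrosine deiodinase, ran against the list with no overlap between the regions. With 6 of 8 genes measured from the CA3 pyramidal cells list, 1 was higher in P/FC, 4 were higher in HIP and 1 did not pass (median log2 difference -1.12).

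Genes of several hippocampal fields all pointed to HIP. The hippocampal neurons of several fields list had 8 of 9 genes measured, of which 0 were called higher in P/FC and 8 higher in HIP, around a median log2 difference of -1.0. Beside Nr3c2 they included Epha7 (-1.35), Neurod6 (-1.17), Neurod1 (-1.06), Hpca (-0.93) and Zbtb20 (-0.79). The Neurod genes encode basic helix-loop-helix factors of excitatory neurons, Hpca is the calcium sensor hippocalcin and Zbtb20 is a zinc finger factor needed for hippocampal identity. Neurod6 read 725 to 999 on the HIP arrays (median 809) and 243 to 478 on the P/FC arrays (median 364). Hpca read 1503 to 2021 on the HIP arrays (median 1685) and 751 to 1057 on the P/FC arrays (median 909). Neither gene overlapped between the regions. The mossy cell list of the hilus had no shared direction, with 2 of 5 genes higher in P/FC and 1 higher in HIP.

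Upper cortical layers were marked in P/FC by Cux2, a homeobox factor of layers that connect cortical areas. Cux2 read 15.3 to 87.1 on the HIP arrays (median 33.4) and 155 to 355 on the P/FC arrays (median 228). All P/FC arrays lay above all HIP arrays (log2 difference 2.79 ± 0.17 (SE), adjusted p = 3.70e-19). Mef2c read 431 to 1214 on the HIP arrays (median 542) and 1979 to 3086 on the P/FC arrays (median 2567). Mef2c, an activity-regulated factor that shapes excitatory synapses, was 4.46-fold higher in P/FC with no overlap (adjusted p = 2.54e-27). Its highest HIP array was the HIP array that stood apart. Lamp5 (1.31) and Cux1 (0.79) were higher as well, against Plcxd2 (-0.64). Upper cortical layers had 7 calls toward P/FC and 1 toward HIP among 11 of 15 genes measured, with a median log2 difference of 0.28. These calls were 7 and 3 after either rescaling.

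Layer 5 genes were split, while those of layer 6 and subplate pointed mostly to P/FC. In the cortical layer 5 list 11 of 11 genes were measured, 6 higher in P/FC, 3 higher in HIP and 2 not passing, and the median log2 difference was 0.12. Rbp4 (1.27) and Kcnk2 (0.99), a retinol carrier and a two-pore potassium channel, were higher in P/FC, and Bcl11b (-0.78), Bcl6 (-0.46) and Crym (-0.39) were higher in HIP. Another probeset of Kcnk2 was called in the opposite direction. With 10 of 12 genes measured from the cortical layer 6 and subplate list, 9 were higher in P/FC, 1 was higher in HIP and 0 did not pass (median log2 difference 0.85). Above 30 in both regions were 5 of them, with 4 and 1 calls and a median of 0.42. Foxp2 read 14.8 to 36.3 on the HIP arrays (median 22.6) and 33.2 to 189 on the P/FC arrays (median 103). Foxp2, a forkhead factor of corticothalamic neurons that striatal neurons also express, had a single P/FC array, numbered 2 of cohort 1, far below the rest (log2 difference 2.17 ± 0.13 (SE), adjusted p = 4.04e-19). Rprm read 27.6 to 112 on the HIP arrays (median 65.5) and 120.0 to 405 on the P/FC arrays (median 290.2). Rprm encodes reprimo, a cell cycle protein, and its groups were apart (log2 difference 2.19 ± 0.12 (SE), adjusted p = 4.88e-20). Tbr1 (1.36) and Cplx3 (1.24) were dim in HIP, with medians of 23.9 and 14.6. Nr4a2 (-0.67), an orphan nuclear receptor, ran against the list.

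**Figure D2:**
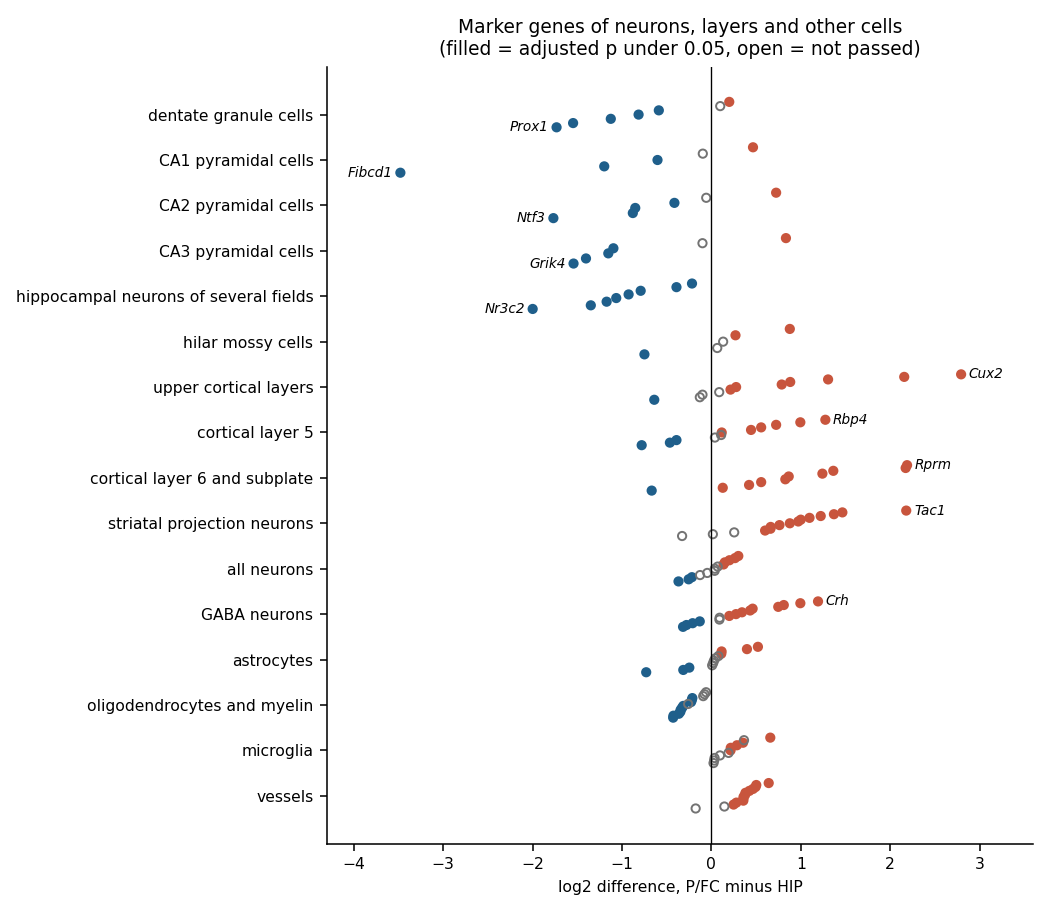
Log2 difference (P/FC minus HIP) of each measured marker gene, by cell type, layer or field, filled where the adjusted p was under 0.05 and open where it was not. Points left of 0 were higher in HIP and points right of 0 in P/FC, the markers of hippocampal fields lie mostly on the left, those of layer 6 on the right, and myelin and vessel genes lie within 1 of 0.

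The frontal lobe pieces also carried striatal transcripts in unequal amounts. Drd1 read 34.7 to 74.8 on the HIP arrays (median 49.1) and 36.7 to 425 on the P/FC arrays (median 124). Drd1, the dopamine D1 receptor, spread widely in P/FC and overlapped HIP (log2 difference 1.37 ± 0.21 (SE), adjusted p = 2.36e-07). The striatal projection neurons list had 15 of 17 genes measured, of which 12 were called higher in P/FC and 0 higher in HIP, around a median log2 difference of 0.88. Tac1 (2.18), Penk (1.47) and Ppp1r1b (1.22), which encode substance P, enkephalin and the phosphoprotein DARPP-32, were higher in P/FC, whereas Adora2a (0.016) and Pdyn (-0.33) did not pass. Across the 22 P/FC arrays the 105 pairs of these genes correlated with a median r of 0.85 (log2 intensity, given as a description), against -0.00027 across the HIP arrays. In P/FC, Foxp2 followed Drd1 with r = 0.88, and Cux2 ran against Drd1 with r = -0.82. These arrays were then compared without the 5 richest in striatal transcripts, a choice made on the list itself that had to lower its median. The difference was 0.96 for Drd1, 1.99 for Foxp2, 0.85 for Rasd2 and 2.89 for Cux2. Adora2a, an adenosine receptor of striatal neurons, then stood at -0.43 (adjusted p = 0.00350).

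Choroid plexus and meningeal transcripts varied among arrays too. Choroid plexus had 1 call toward P/FC and 3 toward HIP among 5 of 10 genes measured, with a median log2 difference of -0.37. Without the 6 HIP arrays richest in Ttr the calls were 1 and 2 and the median -0.10. Ttr read 29.4 to 10282 on the HIP arrays (median 328) and 65.7 to 415 on the P/FC arrays (median 94.9). Ttr encodes transthyretin, the main secreted protein of the choroid plexus (log2 difference -2.17 ± 0.55 (SE), adjusted p = 6.49e-04), and without the 6 HIP arrays richest in it, chosen by that level, the difference was -0.80. Col1a2 read 25.9 to 263 on the HIP arrays (median 44.2) and 29.1 to 523 on the P/FC arrays (median 74.2). This fibrillar collagen of the meninges was above 200 on 8 P/FC arrays and 1 HIP array (log2 difference 1.04 ± 0.32 (SE), adjusted p = 0.00444). Without those 9 arrays, a choice that had to lower the difference, it was 0.28 (adjusted p = 0.286). Leaving out any of these sets of arrays ended no other call among the named genes. Cdhr1 (2.23), a protocadherin of olfactory bulb output neurons and photoreceptors, was higher in P/FC with no overlap. It passed the filter only through P/FC, where it was high, so it had to differ. The remaining 2 olfactory bulb markers measured, Nmb and Th, were above 30 in both regions and did not pass.

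**Figure D3:**
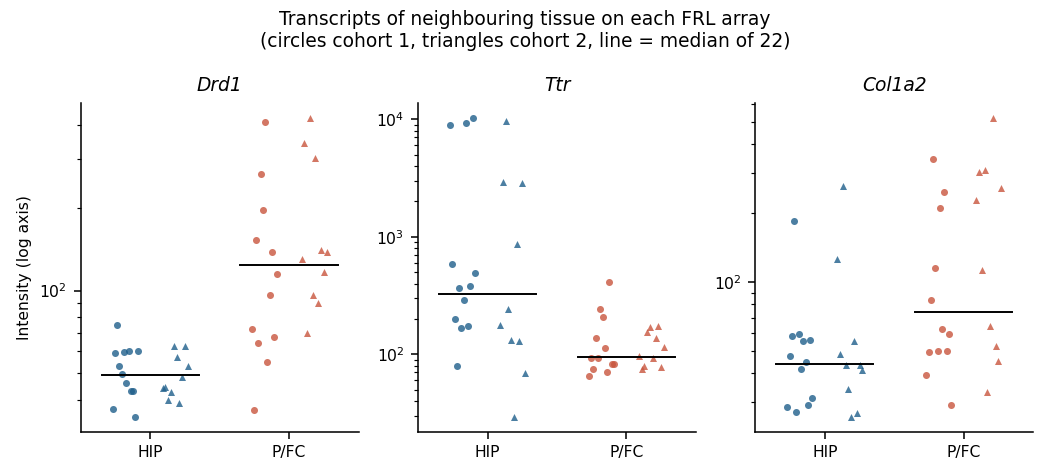
Intensity (log axis) of Drd1, Ttr and Col1a2 on each FRL array, with circles for cohort 1, triangles for cohort 2 and a line at each median. Drd1 spreads most among the P/FC arrays and Ttr among the HIP arrays, where it runs from 29.4 to 10282, and 8 P/FC arrays and 1 HIP array are above 200 in Col1a2.

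The lists of general cell type markers had medians from -0.29 to 0.37, while single members differed by more. In the all neurons list 13 of 13 genes were measured, 5 higher in P/FC, 3 higher in HIP and 5 not passing, and the median log2 difference was 0.038. After either rescaling 3 pointed to P/FC and 5 to HIP, and the medians were -0.047 and -0.049. With 7 of 8 genes measured from the glutamatergic neurons list, 2 were higher in P/FC, 4 were higher in HIP and 1 did not pass (median log2 difference -0.22). These genes ranged from -1.17 to 1.36, with 1 at least 2-fold higher in each region. The 6 that were above 30 in both regions had 1 and 4 calls, with 0 at least 2-fold toward P/FC and 1 toward HIP. The median of all 7 was -0.13 in cohort 1 and -0.33 in cohort 2, with 2 called toward P/FC and 2 toward HIP in both. The oligodendrocytes and myelin list had 14 of 16 genes measured, of which 0 were called higher in P/FC and 10 higher in HIP, around a median log2 difference of -0.29. By cohort the medians were -0.41 and -0.14, with 0 toward P/FC and 1 toward HIP called in both. The myelin differences were small, with Opalin (-0.43) and Mog (-0.42) the largest and Mbp (-0.06) not passing. Vessels had 12 calls toward P/FC and 0 toward HIP among 14 of 16 genes measured, with a median log2 difference of 0.37. Cldn5 (0.47), the tight junction claudin of the blood-brain barrier, and Flt1 (0.49), a VEGF receptor, were among them. In the microglia list 11 of 14 genes were measured, 5 higher in P/FC, 0 higher in HIP and 6 not passing, and the median log2 difference was 0.21. With 12 of 13 genes measured from the astrocytes list, 4 were higher in P/FC, 3 were higher in HIP and 5 did not pass (median log2 difference 0.036). Of these genes 2 were called toward P/FC and 3 toward HIP after either rescaling, and the medians were -0.049 and -0.055. Gfap read 3198 to 4332 on the HIP arrays (median 3654) and 1489 to 3053 on the P/FC arrays (median 2269). Gfap, the intermediate filament of astrocytes, was the astrocyte marker with the largest difference, higher in HIP with no overlap (log2 difference -0.73 ± 0.061 (SE), adjusted p = 3.82e-14).

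Interneuron genes had more calls toward P/FC than toward HIP, at a share near that of all probesets. The GABA neurons list had 15 of 19 genes measured, of which 9 were called higher in P/FC and 4 higher in HIP, around a median log2 difference of 0.28. Without the 5 P/FC arrays richest in striatal transcripts the calls were 8 and 4 and the median 0.13. Over all probesets 69.1% of the calls pointed to P/FC, and the median was 0.089. After either rescaling the list had 7 and 4 calls. The peptides of cortical interneurons led, with Crh (1.19), Vip (1.0), Sst (0.81) and Npy (0.75). Sst read 381 to 713 on the HIP arrays (median 517) and 724 to 1253 on the P/FC arrays (median 933). Npy read 299 to 472 on the HIP arrays (median 378) and 556 to 773 on the P/FC arrays (median 629). Neither somatostatin nor neuropeptide Y overlapped between the regions. The GABA-synthesising enzymes Gad1 (0.20) and Gad2 (0.09) differed by little, and the call for Gad1 was lost after either rescaling.

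Transcription factors held differences in both directions. Forebrain transcription factors had 26 calls toward P/FC and 19 toward HIP among 52 of 59 genes measured, with a median log2 difference of 0.14. At least 2-fold higher in P/FC were 6 of them, and 7 in HIP. With 16 added before the logarithm, 5 were at least 2-fold higher in P/FC and 5 in HIP. Beside those named above, Lhx9 (-1.74), Nr2f2 (-1.55) and Bhlhe22 (-1.49) were higher in HIP. The lowest P/FC array of cohort 2 read 1.03 for Lhx9, near the floor of 1, so its fold is not firm. Bhlhe22 encodes a repressor of the basic helix-loop-helix class, and Nr2f2 is the orphan receptor COUP-TFII, of which another probeset was called in the opposite direction. Bhlhe22 read 814 to 1361 on the HIP arrays (median 1176) and 325 to 515 on the P/FC arrays (median 425). Meis2 read 89.1 to 161 on the HIP arrays (median 117) and 341 to 573 on the P/FC arrays (median 446). Meis2, a homeobox cofactor, was 3.87-fold higher in P/FC with no overlap, and Tshz3 (1.41), a zinc finger factor of corticostriatal neurons, was also higher there.

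Of the serotonin receptors called, only Htr2a was higher in P/FC. In the serotonin receptors list 10 of 14 genes were measured, 1 higher in P/FC, 5 higher in HIP and 4 not passing, and the median log2 difference was -0.33. The 8 that were above 30 in both regions had 0 and 4 calls and a median of -0.33. Htr2a is not among these 8, as it passed the filter only through P/FC. Htr1a read 119 to 238 on the HIP arrays (median 193) and 47.4 to 93.4 on the P/FC arrays (median 65.4). Htr1a, the inhibitory 5-HT1A receptor, was higher in HIP (log2 difference -1.49 ± 0.086 (SE), adjusted p = 1.64e-19). Htr2a read 13.5 to 40.8 on the HIP arrays (median 29.4) and 73.8 to 179 on the P/FC arrays (median 113). Htr2a, the excitatory receptor bound by classic hallucinogens, was higher in P/FC (log2 difference 2.02 ± 0.12 (SE), adjusted p = 4.12e-19). All arrays of the regions were apart for both receptors. Htr5b read 122 to 185 on the HIP arrays (median 149.5) and 14.6 to 31.97 on the P/FC arrays (median 27.99). Htr5b was also higher in HIP (log2 difference -2.56 ± 0.069 (SE), adjusted p = 6.90e-31), by -2.78 in cohort 1 and -2.30 in cohort 2 (adjusted p of the difference between cohorts = 0.0348). Htr4 (-1.05), which raises cyclic AMP, was higher in HIP.

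The catecholamine receptors had more calls toward P/FC than toward HIP, at a share near the 69.1% of calls over all probesets. With 11 of 13 genes measured from the dopamine and adrenergic receptors list, 7 were higher in P/FC, 3 were higher in HIP and 1 did not pass (median log2 difference 0.86). Without the 5 P/FC arrays richest in striatal transcripts the calls were 7 and 3 and the median 0.66. The 9 that were above 30 in both regions had 5 and 3 calls and a median of 0.69. Adra1b read 33.6 to 71.6 on the HIP arrays (median 51.8) and 108 to 191 on the P/FC arrays (median 157). Adra1b, an alpha-1 adrenergic receptor, had no overlap (log2 difference 1.60 ± 0.068 (SE), adjusted p = 2.39e-24). Adrb1 (1.26), Drd4 (1.0) and Drd5 (0.69) were dimmer, with HIP medians of 15.7, 26.6 and 35.03, and Adra1d (-0.65) was higher in HIP. Drd1 and Drd2 belong to the striatal list above. The acetylcholine receptors list had 11 of 14 genes measured, of which 6 were called higher in P/FC and 0 higher in HIP, around a median log2 difference of 0.20. The median was 0.34 in cohort 1 and 0.14 in cohort 2, with 5 called toward P/FC and 0 toward HIP in both. Chrna4 read 5.85 to 50.2 on the HIP arrays (median 23.8) and 40.4 to 96.7 on the P/FC arrays (median 72.7). Chrna4, the alpha-4 nicotinic subunit, and Chrnb4 (1.28) were dim in HIP, and their folds with 16 added were 2.22-fold and 1.69-fold.

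Neuropeptides ranged from -3.02 to 2.18. Neuropeptides had 10 calls toward P/FC and 3 toward HIP among 17 of 21 genes measured, with a median log2 difference of 0.71. These calls were 10 and 5 after either rescaling. The 14 that were above 30 in both regions had 7 and 3 calls and a median of 0.22. Nts read 209.6 to 582 on the HIP arrays (median 385) and 15.03 to 145 on the P/FC arrays (median 44.99). Nts, which encodes neurotensin, was 8.11-fold higher in HIP, with no overlap (log2 difference -3.02 ± 0.20 (SE), adjusted p = 3.74e-17). Cck read 1094 to 1621 on the HIP arrays (median 1489) and 2492 to 3708 on the P/FC arrays (median 3219.8). Cholecystokinin, an abundant cortical peptide, was 2.21-fold higher in P/FC, again with no overlap. Scg2 (-0.96), a secretogranin of dense-core vesicles, was higher in HIP. In the neuropeptide receptors list 20 of 31 genes were measured, 7 higher in P/FC, 5 higher in HIP and 8 not passing, and the median log2 difference was 0.081. After either rescaling 5 pointed to P/FC and 6 to HIP, and the medians were -0.0038 and -0.0011. Sstr1 (1.12), a somatostatin receptor, alone passed 2-fold, and Npy2r (-0.96), dim in both regions, had the largest difference toward HIP.

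GABA A receptor subunits differed in both directions. With 11 of 15 genes measured from the GABA A receptor subunits list, 4 were higher in P/FC, 4 were higher in HIP and 3 did not pass (median log2 difference -0.023). Of these genes 4 were called toward P/FC and 5 toward HIP after either rescaling. Among the 10 above 30 in both regions, 3 pointed to P/FC and 4 to HIP, with a median of -0.056. Gabra5 read 578 to 858 on the HIP arrays (median 731) and 249 to 451 on the P/FC arrays (median 333). Gabra5, the subunit of extrasynaptic receptors on pyramidal cells, was higher in HIP with Gabra2 (-0.77). Gabrd read 213 to 323 on the HIP arrays (median 246) and 394 to 582 on the P/FC arrays (median 447). Gabrd, the delta subunit of tonic inhibition, was higher in P/FC with Gabrb2 (0.87). Gabra5, Gabrd and Gabrb2 did not overlap between the regions.

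Glutamate receptor genes were also divided between the regions. The AMPA and NMDA receptor subunits and partners list had 18 of 19 genes measured, of which 7 were called higher in P/FC and 8 higher in HIP, around a median log2 difference of -0.067. Gria1 read 287 to 834 on the HIP arrays (median 504) and 166 to 383 on the P/FC arrays (median 262). Gria1 and the auxiliary subunit Cacng8 (-1.43), which traffics AMPA receptors, were higher in HIP. Gria3 read 731 to 873 on the HIP arrays (median 774) and 984 to 1497 on the P/FC arrays (median 1299.8). Gria3, Cacng3 (1.03) and the NMDA subunit Grin3a (1.06) were higher in P/FC. Kainate receptor subunits had 3 calls toward P/FC and 3 toward HIP among 7 of 7 genes measured, with a median log2 difference of 0.091. These calls were 1 and 3 after either rescaling. In the metabotropic glutamate receptors list 10 of 11 genes were measured, 4 higher in P/FC, 2 higher in HIP and 4 not passing, and the median log2 difference was -0.11. After either rescaling 4 pointed to P/FC and 4 to HIP. By cohort the medians were -0.15 and 0.043, with 4 toward P/FC and 2 toward HIP called in both. Homer3 read 228 to 342 on the HIP arrays (median 269.7) and 34.5 to 102 on the P/FC arrays (median 71.99). Homer3 and Homer1 (0.75), scaffolds that tether metabotropic receptors, differed in opposite directions, and Grm2 (0.71), a presynaptic receptor, was higher in P/FC.

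**Figure D4:**
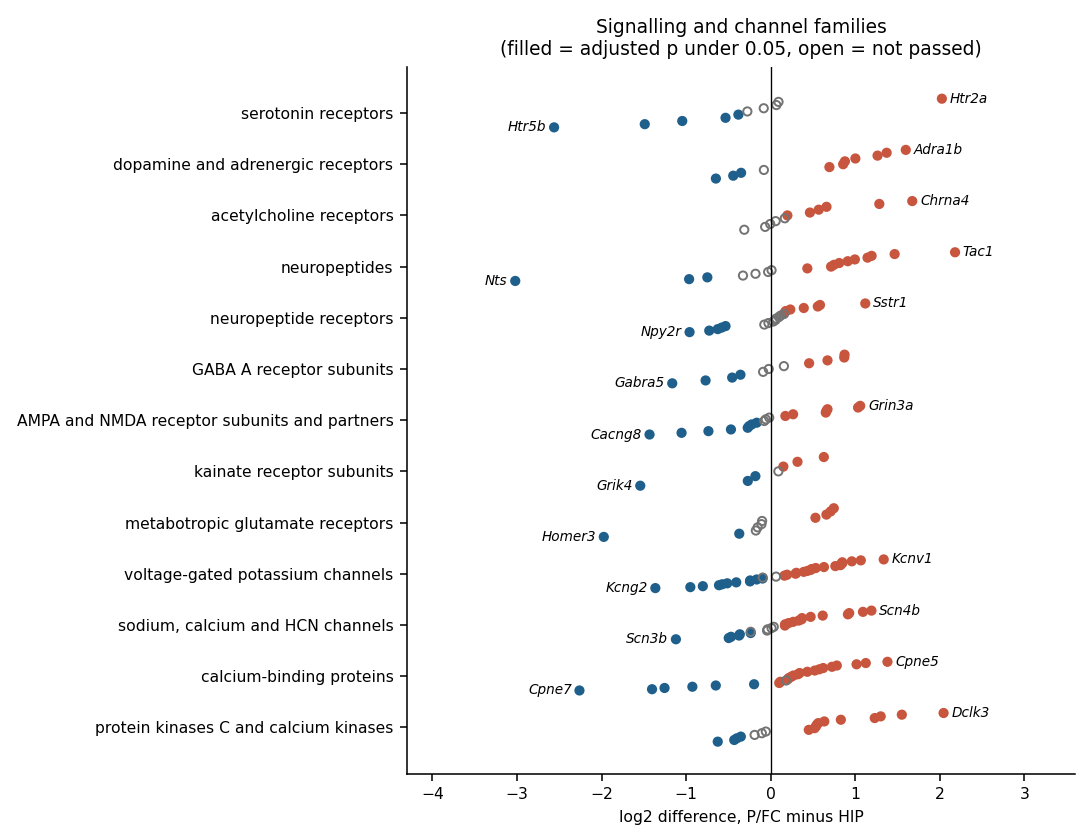
Log2 difference (P/FC minus HIP) of each measured gene of 13 signalling and channel families, filled where the adjusted p was under 0.05 and open where it was not, with the outermost genes named. Points left of 0 were higher in HIP and points right of 0 in P/FC, and most families reach to both sides, from Nts at -3.02 to Tac1 at 2.18.

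The receptors of the stress axis did not move together. With 11 of 14 genes measured from the corticosteroid and CRH stress axis list, 3 were higher in P/FC, 5 were higher in HIP and 3 did not pass (median log2 difference 0.016). Above 30 in both regions were 10 of them, with 2 and 5 calls and a median of -0.072. Nr3c1 read 283 to 330.3 on the HIP arrays (median 304) and 276 to 358 on the P/FC arrays (median 303). The glucocorticoid receptor Nr3c1 thus overlapped fully (log2 difference 0.024 ± 0.03 (SE), adjusted p = 0.497, 95% interval -0.036 to 0.084), unlike the mineralocorticoid receptor, and after quantile normalisation it was called slightly higher in HIP. The corticosteroid-induced genes Fkbp5 (-0.41) and Sgk1 (-0.46) were higher in HIP, and Crh (1.19), dim in HIP with a median of 19.4, in P/FC. The neurotrophins and receptors list had 6 of 9 genes measured, of which 1 was called higher in P/FC and 3 higher in HIP, around a median log2 difference of -0.42. The 4 that were above 30 in both regions had 1 and 1 calls and a median of -0.071. Bdnf read 154 to 313 on the HIP arrays (median 196) and 71.95 to 192 on the P/FC arrays (median 119.7). Bdnf, the brain-derived neurotrophic factor, was higher in HIP (log2 difference -0.68 ± 0.093 (SE), adjusted p = 2.43e-08), and its receptor Ntrk2 (0.017) did not pass.

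Immediate early genes, which neurons switch on within minutes of activity, leaned to P/FC. Immediate early genes had 16 calls toward P/FC and 3 toward HIP among 20 of 24 genes measured, with a median log2 difference of 0.65. Fos read 18.2 to 172 on the HIP arrays (median 76.5) and 56.9 to 546 on the P/FC arrays (median 228). Arc read 280.3 to 639 on the HIP arrays (median 409) and 253 to 1459 on the P/FC arrays (median 848). Fos, a subunit of AP-1, and Arc, a synaptic protein that removes AMPA receptors, were higher in P/FC, with overlap of the regions (log2 difference 1.51 ± 0.21 (SE), adjusted p = 4.54e-08 for Fos). Arc followed Fos across arrays with r = 0.87 in P/FC and 0.80 in HIP (22 arrays each, log2 intensity, a description). Egr4 (1.44), Egr2 (1.16), Nr4a1 (1.06), Egr1 (1.05) and Dusp1 (1.01) were likewise higher in P/FC by 2-fold or more. Against them stood Nr4a3 (-1.48), Jun (-0.77) and Nr4a2 (-0.67). Jun, a partner of Fos, did not overlap between the regions, with medians of 466 in HIP and 278 in P/FC. For Nr4a3 another probeset was called the other way, and its difference was -1.92 in cohort 1 and -0.94 in cohort 2 (adjusted p of the difference between cohorts = 0.0125). The share of the list called is to be read against the 41.6% of probesets called in that direction.

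**Figure D5:**
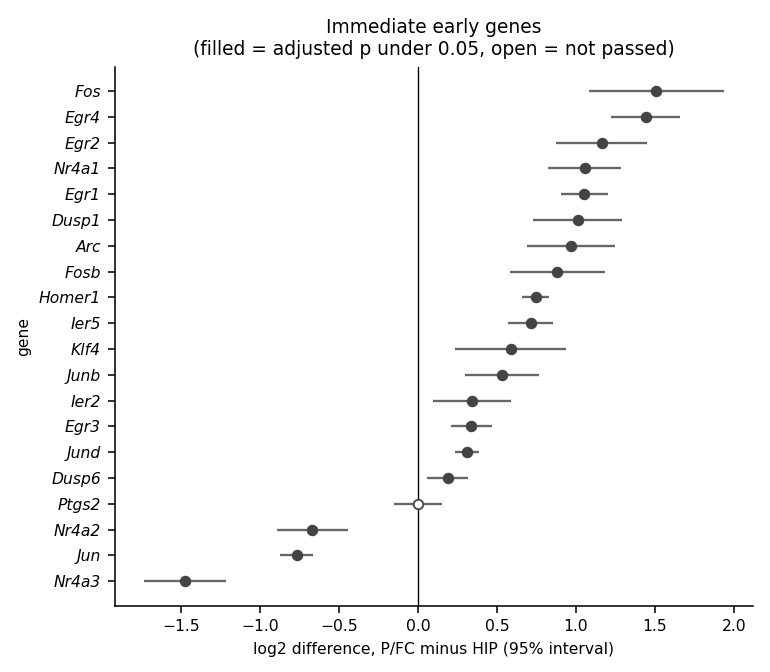
Log2 difference (P/FC minus HIP) of 20 immediate early genes, with bars for the 95% interval, filled where the adjusted p was under 0.05 and open where it was not. Fos at 1.51 lies farthest to the right, and Nr4a3 at -1.48, Jun and Nr4a2 lie to the left of 0.

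Their promoters are shown because many genes of this list are induced through CREB, which binds the cyclic AMP response element. The 250 bases before the annotated start were taken from RefSeq (build GRCr8) and searched on both strands for the half-site TGACG, which the full element TGACGTCA contains on each strand. A promoter was listed for 15 of the 20 genes, and 9 of these held the half-site, against 18.96% of 27457 promoters of the same length. It was in 8 of the 13 higher in P/FC, and in Nr4a2, which was higher in HIP. The full element was in 3 of them, Jund, Ier2 and Dusp1, against 1.70% of all. Half-sites on either strand are in capitals (CGTCA is the half-site read on the other strand), and a match is a description of these letters. Nr4a1 is shown from chr7:134259888-134260137 (plus strand), Dusp1 from chr10:17184603-17184852 (plus), Egr4 from chr4:119607818-119608067 (minus) and Nr4a2 from chr3:62104888-62105137 (minus).
Nr4a1: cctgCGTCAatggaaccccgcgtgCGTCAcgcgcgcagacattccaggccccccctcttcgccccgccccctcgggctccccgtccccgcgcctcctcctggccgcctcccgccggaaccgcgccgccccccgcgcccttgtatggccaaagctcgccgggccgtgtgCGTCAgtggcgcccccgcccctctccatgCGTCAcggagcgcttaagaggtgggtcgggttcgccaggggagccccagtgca
Dusp1: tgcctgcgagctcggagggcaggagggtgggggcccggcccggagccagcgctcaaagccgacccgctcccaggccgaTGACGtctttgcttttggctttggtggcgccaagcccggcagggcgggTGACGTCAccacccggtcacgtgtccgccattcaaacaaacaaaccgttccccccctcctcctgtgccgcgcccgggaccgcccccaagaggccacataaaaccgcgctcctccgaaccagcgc
Egr4: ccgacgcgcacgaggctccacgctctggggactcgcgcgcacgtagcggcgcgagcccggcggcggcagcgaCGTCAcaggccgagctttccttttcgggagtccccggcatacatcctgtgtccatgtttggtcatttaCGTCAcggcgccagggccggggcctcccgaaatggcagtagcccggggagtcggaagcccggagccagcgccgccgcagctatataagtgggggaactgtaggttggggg
Nr4a2: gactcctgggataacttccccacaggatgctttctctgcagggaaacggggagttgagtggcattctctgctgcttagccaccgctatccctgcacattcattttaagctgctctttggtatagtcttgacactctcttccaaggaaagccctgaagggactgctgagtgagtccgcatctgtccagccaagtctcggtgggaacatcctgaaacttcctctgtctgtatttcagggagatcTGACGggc

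Nr4a1 and Nr4a2 encode closely related nuclear receptors and were called in opposite directions. Nr4a1 read 176 to 482 on the HIP arrays (median 312) and 276 to 1135 on the P/FC arrays (median 692). Nr4a2 read 109.5 to 305 on the HIP arrays (median 188) and 59.1 to 225 on the P/FC arrays (median 122). The half-site was found 4 times before Nr4a1, 3 before Dusp1, 2 before Egr4 and 1 before Nr4a2. Egr2 (1.16), higher in P/FC, also had 1. Fosb, Ier5, Homer1, Dusp6 and Klf4, all called higher in P/FC, had 0. Nr4a2 was the only gene higher in HIP with a listed promoter, so the number of sites cannot be set against direction.

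Genes of axon guidance and morphogens differed by member. In the Wnt pathway list 21 of 29 genes were measured, 6 higher in P/FC, 8 higher in HIP and 7 not passing, and the median log2 difference was 0.052. Wnt4 read 137 to 286 on the HIP arrays (median 242) and 37.8 to 102 on the P/FC arrays (median 58.4). Wnt4, a secreted Wnt ligand, was the member at least 2-fold apart, higher in HIP with no overlap (log2 difference -2.02 ± 0.087 (SE), adjusted p = 4.53e-24). With 13 of 21 genes measured from the ephrins and Eph receptors list, 5 were higher in P/FC, 4 were higher in HIP and 4 did not pass (median log2 difference 0.16). Of these genes 4 were called toward P/FC and 5 toward HIP after either rescaling. Without the 9 arrays richest in Col1a2 the calls were 4 and 4 and the median 0.11. The median was -0.12 in cohort 1 and 0.18 in cohort 2, with 4 called toward P/FC and 4 toward HIP in both. Efna5 read 30.4 to 90.4 on the HIP arrays (median 48.6) and 149 to 236 on the P/FC arrays (median 182). Efna5, a membrane-anchored ephrin ligand, was higher in P/FC with Ephb6 (1.01), and the receptors Epha7 (-1.35) and Epha6 (-1.20) were higher in HIP. The semaphorins, plexins and neuropilins list had 25 of 29 genes measured, of which 14 were called higher in P/FC and 6 higher in HIP, around a median log2 difference of 0.18. Among the 22 above 30 in both regions, 11 pointed to P/FC and 6 to HIP, with a median of 0.03. Nrp1 read 248 to 395 on the HIP arrays (median 340.0) and 104 to 150.1 on the P/FC arrays (median 134). Both neuropilins, the semaphorin co-receptors, were higher in HIP, Nrp2 by -1.32, together with Plxna4 (-0.98) and Sema3e (-0.97). Cadherins had 6 calls toward P/FC and 0 toward HIP among 9 of 14 genes measured, with a median log2 difference of 0.28. In the matrix and collagen genes list 28 of 32 genes were measured, 10 higher in P/FC, 8 higher in HIP and 10 not passing, and the median log2 difference was 0.016. These calls were 8 and 12 after either rescaling, and the medians were -0.069 and -0.065. Col19a1 read 22.8 to 99.6 on the HIP arrays (median 46.7) and 105 to 309.7 on the P/FC arrays (median 188). Col19a1, a non-fibrillar collagen, was higher in P/FC, and Hapln4 (-1.19), a link protein of perineuronal nets, and Col25a1 (-1.14) were higher in HIP. Another probeset of Hapln4 was called the other way.

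Ion channel genes differed in both directions as well. With 31 of 40 genes measured from the voltage-gated potassium channels list, 18 were higher in P/FC, 11 were higher in HIP and 2 did not pass (median log2 difference 0.29). Above 30 in both regions were 29 of them, with 16 and 11 calls and a median of 0.19. Kcng2 read 216 to 371 on the HIP arrays (median 283) and 88.8 to 157 on the P/FC arrays (median 109). Kcnv1 read 177 to 303 on the HIP arrays (median 234) and 343 to 715 on the P/FC arrays (median 588). These are both silent subunits that modify Kv2 channels, higher in HIP and in P/FC respectively, with no overlap. Kcnip2 (-0.95), a partner of Kv4 channels, was higher in HIP, and Kcnb2 (1.07) was higher in P/FC. The sodium, calcium and HCN channels list had 24 of 28 genes measured, of which 13 were called higher in P/FC and 6 higher in HIP, around a median log2 difference of 0.17. Scn3b read 1485 to 2288 on the HIP arrays (median 1877) and 590.0 to 1173 on the P/FC arrays (median 822). Among sodium channel beta subunits, Scn3b was higher in HIP and Scn4b (1.19), which the striatum also expresses, in P/FC.

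Intracellular signalling genes included several of the largest differences. RGS proteins and small G protein switches had 16 calls toward P/FC and 4 toward HIP among 27 of 29 genes measured, with a median log2 difference of 0.35. Rgs4 read 207 to 934 on the HIP arrays (median 403) and 1252 to 2007 on the P/FC arrays (median 1773). Rgs4, which shortens signals of Gq- and Gi-coupled receptors, was 4.42-fold higher in P/FC, and no array overlapped (log2 difference 2.14 ± 0.11 (SE), adjusted p = 3.76e-21). Rem2 (-2.24), a small G protein that restrains calcium channels, was higher in HIP. In the protein kinases C and calcium kinases list 18 of 20 genes were measured, 11 higher in P/FC, 4 higher in HIP and 3 not passing, and the median log2 difference was 0.53. Prkcz read 176 to 345 on the HIP arrays (median 229) and 471 to 706 on the P/FC arrays (median 571). Prkcz, an atypical protein kinase C, was higher in P/FC with Dclk3 (2.04), Camk4 (1.55) and Camk2d (1.23), of which Camk2d had another probeset called in the opposite direction. With 24 of 24 genes measured from the calcium-binding proteins list, 17 were higher in P/FC, 6 were higher in HIP and 1 did not pass (median log2 difference 0.26). The copines, which bind membranes when calcium rises, were divided. Cpne7 read 612 to 1085 on the HIP arrays (median 883) and 125 to 240.5 on the P/FC arrays (median 178). Cpne5 read 278 to 556 on the HIP arrays (median 335) and 791 to 1089 on the P/FC arrays (median 895). Cpne7, Cpne4 (-1.40) and Cpne6 (-1.26) were higher in HIP and Cpne5 (1.38) in P/FC, all without overlap. The synaptotagmins, complexins and SNAREs list had 23 of 27 genes measured, of which 16 were called higher in P/FC and 3 higher in HIP, around a median log2 difference of 0.30. Stx1a read 220.5 to 518 on the HIP arrays (median 294) and 762 to 1344 on the P/FC arrays (median 1088). Stx1a, syntaxin 1A of the vesicle fusion machinery, was 3.68-fold higher in P/FC with no overlap. Cerebellins, C1q-like proteins and pentraxins had 5 calls toward P/FC and 2 toward HIP among 11 of 19 genes measured, with a median log2 difference of 0.10. After either rescaling 5 pointed to P/FC and 4 to HIP. Cbln2 read 37.02 to 133 on the HIP arrays (median 68.9) and 236 to 519 on the P/FC arrays (median 430.2). Cbln2, a secreted organiser of synapses that binds neurexins, was 5.99-fold higher in P/FC.

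Over all genes, the 12 largest differences toward HIP were Gpr161 (-4.08), Fibcd1 (-3.48), Nts (-3.02), Dera (-2.75), Htr5b (-2.56), Trpv1 (-2.48), Nhlh1 (-2.44), Lrch4 (-2.39), Smpd2 (-2.27), Cpne7 (-2.26), Klk8 (-2.25) and Rem2 (-2.24). They were the largest among genes called in each cohort. The P/FC median of 9 of them was under 30, so their order is not firm, and 7 were still among the 12 largest with 16 added (Gpr161, Fibcd1, Nts, Cpne7, Htr5b, Smpd2 and Nhlh1, in that order). Gpr161 read 133 to 316 on the HIP arrays (median 216) and 2.91 to 39.9 on the P/FC arrays (median 14.05). Gpr161, an orphan receptor of the primary cilium that restrains Hedgehog signalling, had P/FC values too low for a firm fold, and with 16 added it was 7.78-fold higher in HIP. Dera read 10.3 to 166 on the HIP arrays (median 82.3) and 0.875 to 65.5 on the P/FC arrays (median 12.2). Dera, an aldolase of deoxyribose phosphate, overlapped between the regions. Klk8 encodes neuropsin, a secreted serine protease of hippocampal neurons, and Trpv1 the capsaicin receptor channel.

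Toward P/FC the 12 largest were Cyp11b1 (3.61), Cd8a (3.0), Bmper (2.92), Car10 (2.90), N4bp3 (2.82), Cux2 (2.79), Tmem196 (2.73), Impg2 (2.69), Ltbp2 (2.59), Cbln2 (2.58), Exph5 (2.50) and Opn3 (2.47). The HIP median of 8 of these was under 30, and 5 (Car10, Cbln2, Cux2, Tmem196 and Cyp11b1) were still among the 12 largest with 16 added, where the lowest of the others ranked 102. Car10 read 44.4 to 189 on the HIP arrays (median 118) and 505 to 1031 on the P/FC arrays (median 828). Car10, a carbonic anhydrase-related protein without catalytic activity, was 7.47-fold higher in P/FC with no overlap (log2 difference 2.90 ± 0.11 (SE), adjusted p = 5.92e-26). Cyp11b1 read 0.193 to 17.1 on the HIP arrays (median 6.45) and 27.3 to 126 on the P/FC arrays (median 77.2). Cyp11b1 encodes the 11-beta-hydroxylase of adrenal steroid synthesis, and as HIP was near background its fold fell from 12.2-fold to 3.998-fold with 16 added. Cd8a read 0.753 to 8.61 on the HIP arrays (median 3.84) and 20.6 to 46.1 on the P/FC arrays (median 30.1). Cd8a, a T cell coreceptor, was 2.26-fold higher with 16 added. Bmper, which binds bone morphogenetic proteins, gave 2.25-fold and Opn3, an opsin of the brain, 2.64-fold on that scale.

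The region difference itself was compared between the cohorts and with FSL. It depended on the cohort for 1.43% of probesets. Cntfr, the receptor of ciliary neurotrophic factor, had the smallest p, with 0.055 in cohort 1 and -1.21 in cohort 2 (adjusted p = 0.00105). Over both cohorts this probeset had a region difference of -0.52. Another kept probeset of Cntfr stood at 0.0075 and was not called. Reagents differed between the cohorts, and their part was not tested. The difference depended on the line for 0.068% of probesets. Of the genes named above, Bhlhe22 passed, at -1.49 in FRL and -1.86 in FSL (adjusted p = 0.00594). Prox1 read -1.84, Nr3c2 -1.74, Bok -0.99 and Rasd2 1.03 in FSL, where 17 arrays of each region were measured.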

How the data were processed

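Expression was measured in P/FC and HIP of FRL rats on 44 Affymetrix rat genome arrays, 1 per rat and region. The deposited intensity of each probeset is on a linear scale and was normalised across arrays by the authors with Rosetta Resolver. Values at or below 0 occur, so background had been subtracted. Regions were processed separately, in 2 batches per cohort that the labels do not give. Samples were grouped by their labels, and no array was left out of the main comparison.

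Intensities under 1 were set to 1 and log2 transformed. The 57 control probesets were left out, and 23528 of 31042 probesets above 30 in a share of at least 0.5 of the arrays of either region were kept. A gene symbol was given for 20826 probesets, several for 436 and none for 9780, and a gene was read from its brightest kept probeset. Probesets were fitted with limma 3.58.1 in R 4.3.3 (cohort as a covariate, moderated variances), tested on simulated data. The differences between cohorts and between lines were contrasts of group means, the latter over all 78 arrays. The genes named are up to 8 members of each list with the largest differences and those against the rest, the 12 largest differences in each direction and the smallest p between cohorts and lines. Members and lists were chosen with earlier results of these data known. The fit treats arrays as independent. Numbers in the titles were not used to pair the regions, as same-numbered arrays showed no clear shared deviation. The regions are different tissues processed separately, so that comparison cannot exclude a pairing. The number of arrays limits the precision. Alternatives were a replicate block, a plain analysis of variance, 3 filters and 2 normalisations. Others were 16 added before the logarithm, the mean of probesets and separate cohorts. Chosen after seeing the data were fits without arrays rich in striatal, Ttr or Col1a2 transcripts, or without the HIP array that stood apart. These sets overlap. That HIP array is also among those rich in Ttr. The P/FC array numbered 7 of cohort 1 is among those rich in striatal and in Col1a2 transcripts.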

Additional observations from a re-analysis of the deposited data

Results flagged for a closer look

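In the groups of 10 arrays of cohort 2, an array was marked when its gap to the next exceeded Dixon's critical share of the range of its group. For the named genes 336 groups were searched, and chance alone marks about 1 in 20. The HIP array numbered 2 was the lowest of its group, with the gap as a share of the range, for Gpr161 (0.535), Fibcd1 (0.618), Dera (0.624), Smpd2 (0.480), Dock10 (0.622), Nnat (0.472), Epha7 (0.482), Crym (0.604), Nr2f2 (0.549), Adra1d (0.661), Npy2r (0.618), Cacng8 (0.552), Gria1 (0.645), Wnt4 (0.695), Nrp1 (0.508), Nrp2 (0.593) and Kcng2 (0.479). It was the highest for Mef2c (0.536), Lamp5 (0.700), Gabrb2 (0.494), Gabrd (0.583), Ntrk2 (0.484), Scn4b (0.542) and Cpne5 (0.676). Most genes in the first set are higher in HIP and most in the second are higher in P/FC, and the cause was not tested. Other arrays were marked for single genes. In HIP the highest array was apart for Aqp1 (0.559). In HIP the lowest array was apart for Cux1 (0.528). In P/FC the lowest array was apart for Gpr161 (0.656), Tmem196 (0.476), Lhx9 (0.790), Mog (0.525), Mbp (0.658), Adra1d (0.527) and Chrna4 (0.566).

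The region difference (P/FC minus HIP, log2) differed between the cohorts, as cohort 2 minus cohort 1, by limma's interaction contrast for Htr5b at 0.48 (adjusted p = 0.0348), Amigo2 at 0.49 (adjusted p = 0.0455), Nr4a3 at 0.99 (adjusted p = 0.0125), Cntfr at -1.26 (adjusted p = 0.00105), Ccdc93 at -0.71 (adjusted p = 0.00418), Nfat5 at 0.38 (adjusted p = 0.00552), Lrrc4c at -0.44 (adjusted p = 0.00552), Arpc2 at 0.26 (adjusted p = 0.00552), Camta1 at -0.50 (adjusted p = 0.00598). It differed between the lines, as FRL minus FSL, for Bhlhe22 at 0.37 (adjusted p = 0.00594), Col6a1 at 0.94 (adjusted p = 8.53e-06), Pstpip1 at 0.66 (adjusted p = 9.31e-05), Irf2bpl at -0.31 (adjusted p = 0.00124), Prss23 at 0.68 (adjusted p = 0.00124), Vopp1 at 0.20 (adjusted p = 0.00494), Lrpap1 at -0.26 (adjusted p = 0.00583). For genes other than Htr5b, Amigo2, Nr4a3 and Bhlhe22, the probeset with the smallest p was read. Other kept probesets of Cntfr and Irf2bpl were not called for the region difference. Those of Nfat5, Arpc2, Camta1 and Lrpap1 were called in the same direction as the probeset read. Col6a1, a subunit of collagen VI, had the smallest p between the lines.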

How the results depend on the processing

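168 named genes were refitted under the alternatives, giving 2109 pairs of gene and setting, of which 2094 kept direction and side of the threshold. The call was lost in 4 (Stxbp6, Gad1 and Col1a2) and gained in 9 (Pdyn, Mbp and Ntrk2). In 2 a gene with no call was called on the other side of 0, Adora2a at -0.43 without the arrays richest in striatal transcripts and Nr3c1 at -0.073 after quantile normalisation. The cause was not tested. Counts of called probesets were 14170 calls in all, 9795 higher in P/FC, 4375 higher in HIP, 525 2-fold higher in P/FC, 276 2-fold higher in HIP, 12204 in cohort 1, 11012 in cohort 2, 336 between cohorts, 16 between lines. With a filter of 100 in either region there were 8014 calls in all, 5549 higher in P/FC, 2465 higher in HIP, 257 2-fold higher in P/FC, 156 2-fold higher in HIP, 7064 in cohort 1, 6585 in cohort 2, 10 between lines. With the mean of the probesets of each gene, which leaves fewer tests, there were 7357 calls in all, 5021 higher in P/FC, 2336 higher in HIP, 237 2-fold higher in P/FC, 135 2-fold higher in HIP, 6348 in cohort 1, 5817 in cohort 2, 83 between cohorts, 9 between lines. After quantile normalisation there were 6733 higher in HIP. With no filter there were 968 2-fold higher in P/FC, 502 2-fold higher in HIP. With the filter of 30 in each region there were 316 2-fold higher in P/FC, 182 2-fold higher in HIP. With 16 added there were 229 2-fold higher in P/FC, 158 2-fold higher in HIP. With the replicate block there were 202 between cohorts. Without the arrays richest in striatal transcripts there were 1062 between cohorts, 109 between lines. Without those richest in Ttr there were 113 between cohorts, 10 between lines. Without those richest in Col1a2 there were 29 between lines. Only FRL arrays were left out in these settings, and every FSL array was kept. These counts between lines therefore set a trimmed FRL against an untrimmed FSL, and the part of that trimming was not tested. Whether the numbers in the titles pair the arrays could not be settled. Same-numbered arrays had correlations of -0.27 to 0.34 (median 0.027, 22 pairs), 6 over 0.1, and 3 arrays correlated best with their own number. With the number as a replicate block there were 13947 calls against 14170, and 202 against 336 between cohorts. Intensities near background limit what can be read, and genes under 30 in a region have no firm fold.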

Other observations

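Genes of neighbouring tissue or other cell types that fill no comparison above also differed. The thalamus and habenula list had 9 of 10 genes measured, of which 5 were called higher in P/FC and 3 higher in HIP, around a median log2 difference of 0.15. The median was 0.032 in cohort 1 and 0.33 in cohort 2, with 3 called toward P/FC and 0 toward HIP in both. Ramp3 (1.31), a receptor activity-modifying protein, and Rora (0.82), an orphan nuclear receptor, led toward P/FC, while the defining thalamic markers Tcf7l2 (0.15) and Slc17a6 (-0.22) differed by little. Oligodendrocyte precursors had 3 calls toward P/FC and 2 toward HIP among 6 of 7 genes measured, with a median log2 difference of 0.16. These calls were 2 and 2 after either rescaling. None of them was called in both cohorts. In the neural progenitors and newborn granule neurons list 7 of 17 genes were measured, 4 higher in P/FC, 2 higher in HIP and 1 not passing, and the median log2 difference was 0.12. After either rescaling 2 pointed to P/FC and 3 to HIP. None of them was called in both cohorts. Dcx (-0.17), the doublecortin of newborn neurons, did not pass. With 4 of 7 genes measured from the ependyma list, 2 were higher in P/FC, 2 were higher in HIP and 0 did not pass (median log2 difference -0.11). The 3 that were above 30 in both regions had 1 and 2 calls and a median of -0.56. By cohort the medians were -0.15 and -0.056, with 2 toward P/FC and 2 toward HIP called in both. The meninges list had 10 of 11 genes measured, of which 2 were called higher in P/FC and 2 higher in HIP, around a median log2 difference of 0.20. These calls were 1 and 2 after either rescaling. Without the 5 P/FC arrays richest in striatal transcripts the calls were 1 and 2 and the median 0.079. Some of these 5 are also among the 9 arrays richest in Col1a2. Without the 6 HIP arrays richest in Ttr the calls were 4 and 2 and the median 0.35. Without the 9 arrays richest in Col1a2 the calls were 0 and 4 and the median -0.31. The median was 0.016 in cohort 1 and 0.37 in cohort 2, with 0 called toward P/FC and 1 toward HIP in both. Housekeeping and invariant genes had 5 calls toward P/FC and 0 toward HIP among 10 of 14 genes measured, with a median log2 difference of 0.079. These calls were 1 and 2 after either rescaling, and the medians were -0.0054 and -0.0092. Mrfap1 (-0.00085) and Tbp (0.011) did not pass, and Cdipt (0.20) had the largest difference.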
